A study of Mus musculus with 15 samples.

Results

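The effect of iEVs on the irradiated submandibular gland was compared between days 30 and 4 after irradiation, as the change of IR_iEV over IR on day 30 minus the same change on day 4. The comparison used 12 of the 15 bulk RNA libraries of the series, 3 in each of 4 groups. All mice were wildtype C57BL/6 males aged 8 to 10 weeks. IR_iEV_30d mice received 15 Gy to the gland region, weekly injections of iEVs into the gland from day 1, and were collected on day 30. IR_30d mice received the same dose without iEVs and were collected on day 30. IR_iEV_4d and IR_4d mice were treated in those same 2 ways and collected on day 4, so that the iEV mice had been treated for a shorter time. The 3 remaining libraries, from nontreated mice (NT), are given as a level beside the others; they enter no term of the comparison but share in the scaling, the filter and the estimate of spread. The labels do not spell out iEV; the series title speaks of extracellular vesicles of mesenchymal stem cells. No group is named as injected with vehicle, so the iEVs and the injection cannot be told apart, and none is named as given iEVs without irradiation. The collection day of the NT glands and the number of mice behind each library are not stated, so the p-values measure the spread between these libraries, which may be partly technical.

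Type I interferons bind a receptor that signals through JAK kinases to transcription factors that bind the interferon-stimulated response element in front of antiviral genes such as the Ifit and Oas families. IRF7, itself a product of this response, drives further interferon transcription. Complement is a cascade of plasma and locally made proteins that tags cells and debris, and tissue macrophages are a main source of its C1q subunits. NF-kB p52, the product of Nfkb2, acts in the non-canonical branch of NF-kB signalling. The submandibular gland makes saliva through acinar cells and ducts, and in male mice its granular convoluted tubules store kallikreins and growth factors.

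Of 16042 genes tested, 20 passed the threshold (adjusted p under 0.05, edgeR), and in all 20 the iEV change was lower on day 30 than on day 4. This was 0.125% of the genes tested. No gene passed in the higher direction (0%), where the lowest adjusted p was 0.0803. At an unadjusted p under 0.05, 860 genes were lower (5.36%) and 592 were higher (3.69%). DESeq2 called 97 genes lower and 22 higher, limma-voom called 17 lower and none higher, and edgeR on the 12 irradiated libraries alone called 26 lower and 3 higher. The log2 difference was below 0 in 51.3% of the genes tested, with a median of -0.01. Among the 20 genes the log2 difference ran from -3.11 (Ifi206) to -0.64 (Slc39a14), and each had a log2 iEV change below 0 on day 30 and above 0 on day 4. The day-4 changes of Nfkb2, Hsd11b1 and Slc39a14 lay within their standard error of 0. The 20 genes were selected by the difference of these changes, so the signs only describe it. A set of 10 of the 20 belonged to the interferon-stimulated list, 2 were C1q subunits on the macrophage list and 1 was the complement gene Cfb. The other 7 were Nfkb2, Hsd11b1, Slc39a14, Sdc3, Ccdc80, Siglec1 and Ifi206.

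The libraries were sequenced to totals between 29082798 and 52201098 counts, of which the 10 most counted genes took 39.9 to 50.4% and mitochondrial genes 2.94 to 4.24%. Acinar and granular convoluted tubule products were high in every library, as fits the labelled tissue. Markers of bordering tissues differed between libraries. The sublingual list stood above a mean log2 CPM of 4 in 6 libraries, IR_iEV_30d replicate 2, IR_iEV_4d replicates 2 and 3, IR_4d replicates 1 and 2 and NT replicate 1. The sublingual mucin gene Muc19 had 0.540, 371 and 0.555 CPM in IR_iEV_30d, 0.172 to 0.423 CPM in IR_30d, 0.524, 307 and 384 CPM in IR_iEV_4d, and 764, 453 and 1.01 CPM in IR_4d. Adipose markers summed to 182 to 219 CPM in IR_iEV_30d, 175 to 252 CPM in IR_30d, 213 to 975 CPM in IR_iEV_4d and 151 to 458 CPM in IR_4d. IR_iEV_4d replicate 2 had the highest adipose sum, and its skeletal muscle markers summed to 67.3 CPM against at most 6.13 CPM in any other library. Parotid products had a mean log2 CPM of 3.02 to 6.68 in IR_iEV_30d, 3.13 to 5.27 in IR_30d, 6.87 to 8.06 in IR_iEV_4d and 3.65 to 8.02 in IR_4d. The median log2 difference was -3.08 for 16 adipose markers, -3.81 for 8 skeletal muscle markers, -1.95 for 6 red blood cell markers, 0.83 for 7 parotid products and 6.17 for 8 sublingual products, and none of these genes passed in edgeR, whereas DESeq2 called 1 sublingual product higher. The part of these tissues in the results was not tested beyond the values that follow. With the sublingual and adipose levels as covariates 10 of the 20 genes were called and none besides, and without the 6 libraries 5 genes were called lower and 2 higher, of which Ifit3 and Oas2 were among the 20. All 20 kept a negative difference in both fits, although they had been selected by this difference in the same libraries. With the parotid level as a covariate 23 genes were called lower, 19 of them among the 20. Leaving out IR_30d replicate 2 gave 9 calls and leaving out IR_30d replicate 3 gave 12, all among the 20. Not called with the sublingual and adipose covariates were Ifi206, Siglec1, Gbp3, C1qb, C1qa, Oas3, Ifitm3, Bst2, Slc39a14 and Ccdc80.

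**Figure D1:**
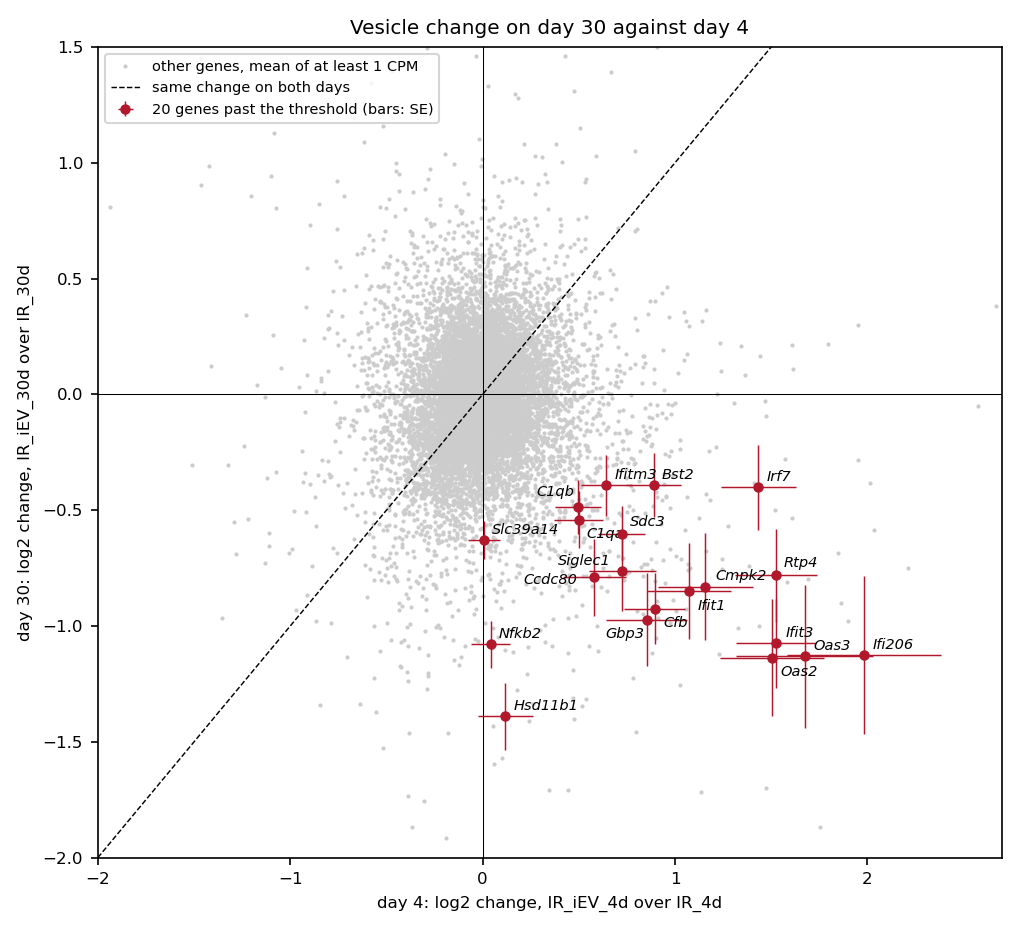
The log2 change of IR_iEV_30d over IR_30d (vertical axis) is plotted against that of IR_iEV_4d over IR_4d (horizontal axis) for genes with a mean of at least 1 CPM, of which 41 lie outside the axes. Red points with SE bars mark the 20 genes past the threshold, which lie below 0 on day 30 and above 0 on day 4, off the dashed line of equal change. On day 4, Nfkb2, Hsd11b1 and Slc39a14 lie within their SE of 0.

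The interferon-stimulated genes formed the largest group. The antiviral gene Ifit3, whose product binds into complexes that retain foreign RNA, had 7.53, 7.02 and 4.93 CPM in IR_iEV_30d, 13.0, 12.2 and 15.6 CPM in IR_30d, 7.86, 5.99 and 7.06 CPM in IR_iEV_4d, and 2.57, 2.51 and 2.17 CPM in IR_4d. Every IR_iEV_30d library lay below every IR_30d library, whereas every IR_iEV_4d library lay above every IR_4d library. Its log2 change with iEVs was -1.07 ± 0.19 (SE) on day 30 and 1.52 ± 0.21 on day 4, with adjusted p of 0.0145 and 0.0104, and the difference was -2.60 ± 0.28 (adjusted p = 0.000787). The NT libraries had 3.44, 5.82 and 5.18 CPM, between the IR_30d and the IR_4d libraries. Ifit3 has a close paralog, Ifit3b, and it is not stated how multiply mapped reads were treated, so its counts may hold reads of both.

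Ifit1, whose product binds RNA that lacks a host cap, moved in the same pattern at a similar level. It had 5.40, 4.61 and 5.31 CPM in IR_iEV_30d, 10.1, 8.35 and 9.22 CPM in IR_30d, 5.93, 5.18 and 6.36 CPM in IR_iEV_4d, and 2.69, 3.44 and 2.13 CPM in IR_4d. The groups of each day did not overlap, and the iEV libraries of the 2 days did (log2 difference -1.92 ± 0.30, adjusted p = 0.00989). Oas2, an enzyme that makes the messenger activating RNase L, had 3.75, 4.65 and 3.04 CPM in IR_iEV_30d, 6.07, 10.6 and 8.39 CPM in IR_30d, 3.90, 4.38 and 4.97 CPM in IR_iEV_4d, and 1.98, 1.75 and 0.909 CPM in IR_4d. IR_30d held the 3 highest libraries and IR_4d the 3 lowest of the 12 (difference -2.64 ± 0.37, adjusted p = 0.00395). Its neighbour in the family, Oas3, was lower in counts, at a mean of 1.94 ± 0.722 (SD, n = 3) CPM in IR_iEV_30d, 4.23 ± 0.791 CPM in IR_30d, 1.47 ± 0.386 CPM in IR_iEV_4d and 0.461 ± 0.0499 CPM in IR_4d. Its difference was -2.80 ± 0.47 (adjusted p = 0.0163), with 14, 17 and 13 counts in the IR_4d libraries. Oas3 was called in 8 of 12 fits that left out 1 library, and was not called by limma-voom.

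Irf7, the interferon-induced transcription factor, differed from these in its day-30 libraries. It had 27.8, 16.9 and 24.4 CPM in IR_iEV_30d, 27.4, 29.2 and 34.9 CPM in IR_30d, 16.3, 17.9 and 16.9 CPM in IR_iEV_4d, and 6.92, 6.49 and 5.49 CPM in IR_4d. The day-30 groups overlapped and the day-4 groups stood well apart. Its iEV change was -0.40 ± 0.18 on day 30 (adjusted p = 0.375) and 1.43 ± 0.20 on day 4 (adjusted p = 0.0104), with a difference of -1.83 ± 0.27 (adjusted p = 0.00893). Rtp4, an interferon-induced chaperone of receptors, had 4.94, 4.68 and 4.40 CPM in IR_iEV_30d, 6.68, 8.12 and 9.27 CPM in IR_30d, 5.11, 5.72 and 5.53 CPM in IR_iEV_4d, and 1.57, 2.57 and 1.54 CPM in IR_4d. Its iEV groups spanned a narrow range next to the IR groups, and the difference was -2.30 ± 0.29 (adjusted p = 0.00149).

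Bst2 encodes tetherin, which holds budding virus particles on the cell surface. It averaged 13.2 ± 1.52 CPM in IR_iEV_30d, 17.2 ± 3.54 CPM in IR_30d, 12.5 ± 1.04 CPM in IR_iEV_4d and 6.72 ± 0.285 CPM in IR_4d (SD, n = 3 each). The day-30 libraries overlapped, with IR_30d replicate 1 at 13.2 CPM, and the day-4 libraries did not (difference -1.28 ± 0.20, adjusted p = 0.00989). Gbp3, an interferon-induced GTPase, averaged 4.09 ± 1.31 CPM in IR_iEV_30d, 7.99 ± 0.911 CPM in IR_30d, 4.90 ± 0.445 CPM in IR_iEV_4d and 2.72 ± 0.163 CPM in IR_4d, and its difference was -1.82 ± 0.29 (adjusted p = 0.0113). Cmpk2, a mitochondrial nucleotide kinase, averaged 3.54 ± 0.685 CPM in IR_iEV_30d, 6.28 ± 0.382 CPM in IR_30d, 3.72 ± 0.445 CPM in IR_iEV_4d and 1.65 ± 0.580 CPM in IR_4d, with a difference of -1.99 ± 0.34 (adjusted p = 0.0163). Ifitm3, a membrane protein that blocks virus entry, was the most counted of the 10, at 29.6 ± 3.44 CPM in IR_iEV_30d, 38.8 ± 6.49 CPM in IR_30d, 31.7 ± 1.67 CPM in IR_iEV_4d and 20.3 ± 2.84 CPM in IR_4d. Its difference of -1.03 ± 0.19 was the smallest of the 10, and its adjusted p was 0.0291.

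Ifi206, which lies outside the list, belongs to the p200 family of DNA-sensing proteins. It was the least counted of the 20 genes and, with a mean below 2 CPM, falls under the minimum set for named genes, so it was named after its values were seen. It had 1.87, 1.38 and 0.749 CPM in IR_iEV_30d, 2.30, 3.76 and 2.65 CPM in IR_30d, 1.18, 1.18 and 1.29 CPM in IR_iEV_4d, and 0.296, 0.242 and 0.385 CPM in IR_4d. The difference was -3.11 ± 0.53 (adjusted p = 0.0163), and reads of its family members may be shared, as may those of the Ifit, Oas and Gbp paralogs. Ifi206 had 10, 8 and 11 counts in the IR_4d libraries. It was called in 7 of 12 fits that left out 1 library, and was not called by limma-voom.

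The interferon-stimulated list as a whole had 50 members tested of 52. Of these 10 were lower (20% of the members against 0.125% of all genes), none was higher and 40 did not pass. At an unadjusted p under 0.05, 44 members were lower, which was 88% of the list against 5.36% of all genes. The median log2 difference of the 50 was -1.22, against -0.01 over all genes, and 49 were below 0. The list median was -0.815 when genes with a mean below 5 CPM were left out. Over the 50, the median log2 change with iEVs was -0.47 on day 30 and 0.67 on day 4. Between the days, the median log2 change was 0.07 with iEVs (IR_iEV_30d over IR_iEV_4d) and 1.31 without (IR_30d over IR_4d). Summed over the list, levels were 729 to 918 CPM in IR_iEV_30d, 904 to 1049 CPM in IR_30d, 725 to 784 CPM in IR_iEV_4d and 484 to 601 CPM in IR_4d, beside 603 to 795 CPM in NT. The sums, to which abundant members add most, overlapped between the day-30 groups and not between the day-4 groups. The mean log2 CPM of the members did not overlap on either day, at 2.89 to 3.16 in IR_iEV_30d, 3.45 to 3.64 in IR_30d, 2.82 to 2.94 in IR_iEV_4d and 2.05 to 2.30 in IR_4d. The receptor and JAK-STAT list had 16 members tested, none past the threshold, and a median difference of -0.11. Its member Ifngr1, a chain of the interferon-gamma receptor, had a difference of -0.43 ± 0.13 (adjusted p = 0.299).

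**Figure D2:**
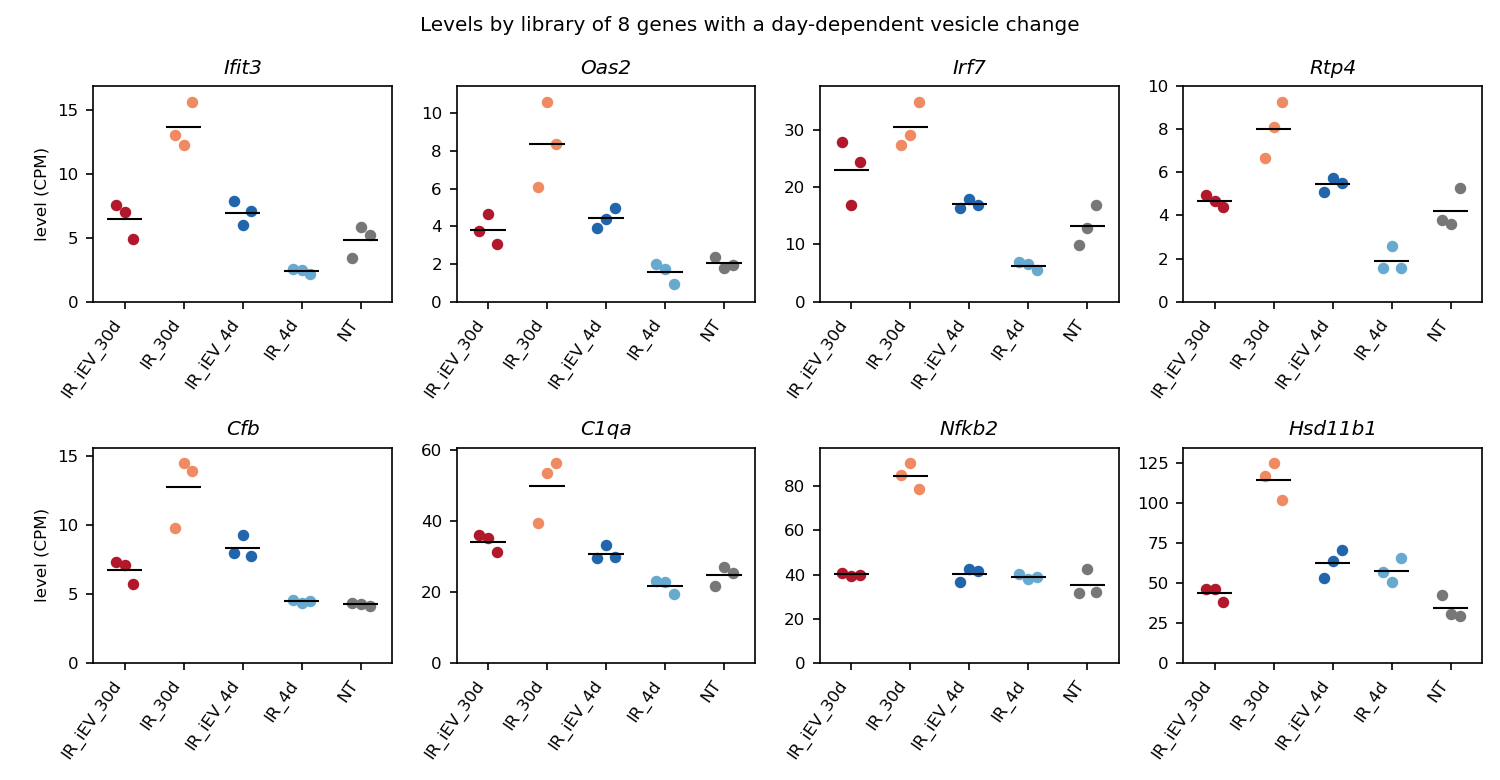
Levels in CPM (vertical axes, from 0) of 8 genes past the threshold are shown for every library of the 5 groups, with the group mean as a line. In Ifit3, Oas2, Rtp4 and Cfb the IR_30d libraries are highest and the IR_4d libraries lie below both iEV groups, while in Nfkb2 and Hsd11b1 the IR_30d libraries are highest and the day-4 groups overlap.

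Promoter sequences were available for 13 of the 20 genes, in 16 windows that run from 250 bases before to 50 bases after a RefSeq gene start. They were searched on both strands for the letters GAAANNGAA, part of the interferon-stimulated response element, and for GGGANNTTC, part of an NF-kB site. The first was found in 7 of the 16 windows, in 7 genes (Ifit3, Ifit1, Oas3, Bst2, Gbp3, Ifi206 and Ifitm3), and in 8.56% of 32851 windows of all genes. Irf7 and Cmpk2, also on the interferon-stimulated list, had windows without a match to it, and Rtp4 and Oas2 had no window. The NF-kB letters were found in 3 of the 16 windows, in 2 genes, Nfkb2 and Ifitm3, and in 3.94% of all windows. Both Nfkb2 windows with a match overlap and share 1 of these matches. Matches to the 2 motifs did not overlap each other, and a match is a description of the letters, not of binding. The windows below come from RefSeq on the build GRCm38.p6 and were matched by gene symbol, since the counts were made on GRCm39. They are the windows of 4 antiviral genes and of Nfkb2, shown for how the matches are placed. Each is printed on the strand of its gene, with matches on either strand in capitals. Ifit3 is at chr19:34583279-34583578 (plus strand), Ifit1 at chr19:34640639-34640938 (plus), Oas3 at chr5:120777610-120777909 (minus), Bst2 at chr8:71537423-71537722 (minus) and Nfkb2 at chr19:46305445-46305744 (plus).
Ifit3: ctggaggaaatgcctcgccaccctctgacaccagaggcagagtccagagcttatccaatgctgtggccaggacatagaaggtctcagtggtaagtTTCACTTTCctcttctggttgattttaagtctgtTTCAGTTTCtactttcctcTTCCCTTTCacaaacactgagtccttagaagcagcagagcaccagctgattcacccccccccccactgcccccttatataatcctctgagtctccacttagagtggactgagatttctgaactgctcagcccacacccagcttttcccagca
Ifit1: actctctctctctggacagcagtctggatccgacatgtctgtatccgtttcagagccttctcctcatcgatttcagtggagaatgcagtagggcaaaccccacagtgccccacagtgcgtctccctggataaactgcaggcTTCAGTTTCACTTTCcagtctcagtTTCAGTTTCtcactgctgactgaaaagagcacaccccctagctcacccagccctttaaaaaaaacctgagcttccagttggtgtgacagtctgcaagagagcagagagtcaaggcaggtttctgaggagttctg
Oas3: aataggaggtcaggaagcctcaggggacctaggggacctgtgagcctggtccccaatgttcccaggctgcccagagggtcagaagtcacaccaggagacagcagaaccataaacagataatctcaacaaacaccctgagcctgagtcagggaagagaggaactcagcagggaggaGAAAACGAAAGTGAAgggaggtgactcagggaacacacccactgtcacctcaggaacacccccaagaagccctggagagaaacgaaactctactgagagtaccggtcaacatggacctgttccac
Bst2: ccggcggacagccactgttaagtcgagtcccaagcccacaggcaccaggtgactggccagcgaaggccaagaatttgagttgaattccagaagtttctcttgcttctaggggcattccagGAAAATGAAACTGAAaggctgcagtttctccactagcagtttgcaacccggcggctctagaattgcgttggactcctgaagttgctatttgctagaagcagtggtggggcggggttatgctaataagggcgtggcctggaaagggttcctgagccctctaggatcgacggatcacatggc
Nfkb2: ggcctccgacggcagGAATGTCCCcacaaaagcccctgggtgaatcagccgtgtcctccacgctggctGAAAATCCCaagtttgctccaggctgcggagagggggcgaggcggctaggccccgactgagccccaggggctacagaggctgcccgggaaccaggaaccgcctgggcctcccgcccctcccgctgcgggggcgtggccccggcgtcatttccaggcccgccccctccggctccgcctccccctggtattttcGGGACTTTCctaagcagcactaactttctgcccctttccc
Counted from the gene start, Ifit3 held 3 matches to the interferon letters, beginning at -155, -121 and -102, all on the strand opposite the gene. Ifit1 also held 3 on that strand, at -109, -103 and -84, of which the first 2 overlapped. The 2 matches of Bst2, at -130 and -124, and those of Oas3, at -75 and -69, overlapped each other and lay on the strand of the gene. The Nfkb2 window, 1 of 3 for that gene, held matches to the NF-kB letters at -235, -182 and 10, and none to the interferon letters.

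Among complement and macrophage genes, Cfb, C1qa, C1qb and Siglec1 were lower. Cfb encodes factor B, the protease of the alternative complement pathway, and had 7.30, 7.08 and 5.72 CPM in IR_iEV_30d, 9.76, 14.4 and 13.9 CPM in IR_30d, 7.92, 9.22 and 7.77 CPM in IR_iEV_4d, and 4.52, 4.38 and 4.51 CPM in IR_4d. The groups of each day did not overlap, and NT, at 4.16 to 4.33 CPM, lay below IR_4d. Its iEV change was -0.92 ± 0.15 on day 30 (adjusted p = 0.0124) and 0.89 ± 0.16 on day 4 (adjusted p = 0.0639), and the difference was -1.82 ± 0.22 (adjusted p = 0.00149). C1qa, a chain of C1q made by tissue macrophages, had 36.2, 35.3 and 31.2 CPM in IR_iEV_30d, 39.4, 53.6 and 56.2 CPM in IR_30d, 29.5, 33.1 and 29.7 CPM in IR_iEV_4d, and 23.001, 22.9 and 19.5 CPM in IR_4d. IR_30d replicate 1 lay close to the highest iEV library, and the groups of each day did not overlap (difference -1.04 ± 0.18, adjusted p = 0.0163). C1qb, a second C1q chain, had a difference of -0.98 ± 0.17 (adjusted p = 0.0163), at 31.2 ± 3.14 CPM in IR_iEV_30d, 43.6 ± 6.33 CPM in IR_30d, 26.9 ± 0.510 CPM in IR_iEV_4d and 19.0 ± 2.47 CPM in IR_4d. The last chain, C1qc, had a difference of -0.92 ± 0.19 that did not pass (adjusted p = 0.0888). C4b, a classical pathway component that shares sequence with C4a, had -1.53 ± 0.28 (adjusted p = 0.0545), and C3, on which the pathways converge, had -1.44 ± 0.44 (adjusted p = 0.357). DESeq2 called C1qc, C4b and Fcgr1, a high-affinity antibody receptor of macrophages. In edgeR, C1qc and C4b were called when IR_30d replicate 1 was left out, and C4b also without IR_iEV_4d replicate 1. C1qa and C1qb in turn lost the call with the sublingual and adipose levels as covariates, where C1qb had an adjusted p of 0.289. With 1 library left out at a time, C1qa was called in 9 and C1qb in 7 of 12 fits.

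Siglec1, the sialic acid receptor of macrophages and also induced by interferon, had 12.1, 11.2 and 8.33 CPM in IR_iEV_30d, 15.0, 19.7 and 19.0 CPM in IR_30d, 9.27, 12.5 and 11.1 CPM in IR_iEV_4d, and 7.48, 6.52 and 5.87 CPM in IR_4d. No libraries overlapped between the groups of a day, and the difference was -1.49 ± 0.24 (adjusted p = 0.0132). Siglec1 lost the call with the sublingual and adipose levels as covariates, and was called in 9 of 12 fits that left out 1 library. Of 26 macrophage and monocyte markers, a list that does not hold Siglec1, 2 were lower (7.69%, against 0.125% of all genes), none was higher and 24 did not pass. At an unadjusted p under 0.05, 19 were lower (73.1%, against 5.36% of all genes), and the median difference was -0.68. Fcgr1 had -1.98 ± 0.41 (adjusted p = 0.0958). The markers summed to 380 to 498 CPM in IR_iEV_30d, 521 to 639 CPM in IR_30d, 333 to 370 CPM in IR_iEV_4d and 282 to 318 CPM in IR_4d. Fewer cells of a type and less RNA per cell cannot be told apart in bulk tissue, and the part of macrophage number in the interferon and complement genes was not tested. Of 16 complement genes tested of 18, Cfb was the only one past the threshold (6.25%, against 0.125% of all genes), 8 were lower at an unadjusted p under 0.05 (50%, against 5.36%) and the median difference was -0.62. Serping1, the C1 inhibitor, had -0.61 ± 0.16 (adjusted p = 0.217).

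Antigen presentation genes did not pass in edgeR or DESeq2. Of 18 MHC class I and antigen processing genes, 4 were lower at an unadjusted p under 0.05 (22.2%, against 5.36% of all genes), and the median was -0.23, with all 18 below 0. Tap1, a peptide transporter, averaged 29.5 CPM in IR_iEV_30d, 33.1 CPM in IR_30d, 23.005 CPM in IR_iEV_4d and 17.9 CPM in IR_4d (difference -0.53 ± 0.15, adjusted p = 0.273). Of 9 MHC class II genes, 3 were lower at an unadjusted p under 0.05 (33.3%, against 5.36% of all genes). Their differences ran from -1.99 to 0.23 with a median of -0.29. H2-Ab1 averaged 92.3 CPM in IR_iEV_30d, 93.2 CPM in IR_30d, 40.3 CPM in IR_iEV_4d and 30.9 CPM in IR_4d, with the means of both day-30 groups above those of both day-4 groups. None of 14 T and NK cell markers passed, and their median difference was 0.05.

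In Nfkb2, Hsd11b1 and Slc39a14 the day-4 groups did not separate. Nfkb2 had 40.9, 39.5 and 39.8 CPM in IR_iEV_30d, 84.9, 90.2 and 78.9 CPM in IR_30d, 36.6, 42.3 and 41.4 CPM in IR_iEV_4d, and 40.1, 38.0 and 38.8 CPM in IR_4d. The 3 IR_30d libraries stood alone above the other irradiated groups and NT, which had 31.8 to 42.5 CPM. The iEV change was -1.08 ± 0.10 on day 30 (adjusted p = 9.1e-05) and 0.04 ± 0.10 on day 4 (adjusted p = 0.954), with a difference of -1.12 ± 0.14 (adjusted p = 0.00149). Of 22 NF-kB subunits, inhibitors and targets, Nfkb2 was the only one past the threshold and the only one lower at an unadjusted p under 0.05, and the median was -0.05. Bcl3, a nuclear partner of p52, had -0.39 ± 0.32 (adjusted p = 0.803).

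Hsd11b1, the enzyme that regenerates active glucocorticoid inside cells, had 46.2, 46.6 and 38.4 CPM in IR_iEV_30d, 117, 125 and 102 CPM in IR_30d, 53.1, 63.9 and 70.4 CPM in IR_iEV_4d, and 57.0, 50.4 and 65.4 CPM in IR_4d. Again the IR_30d libraries stood alone at the top and the day-4 groups overlapped, while every IR_iEV_30d library lay below both day-4 groups (-1.39 ± 0.15 on day 30, 0.12 ± 0.14 on day 4, difference -1.51 ± 0.20, adjusted p = 0.00401). It was the only 1 of 14 androgen and glucocorticoid response genes past the threshold, and the median of that list was 0.09. Slc39a14, a zinc and iron importer induced in the acute phase, had 29.5, 30.2 and 29.4 CPM in IR_iEV_30d, 43.2, 48.3 and 46.4 CPM in IR_30d, 43.0, 45.2 and 49.4 CPM in IR_iEV_4d, and 43.0, 46.4 and 47.7 CPM in IR_4d. Here the IR_iEV_30d libraries stood alone at the bottom, near the NT libraries at 30.8 to 34.8 CPM, and the difference was -0.64 ± 0.12 (adjusted p = 0.0312). It was the only 1 of 12 acute phase and metal binding genes past the threshold. Lcn2, an iron-binding acute phase protein, had 23.9, 37.4 and 18.4 CPM in IR_iEV_30d, 96.5, 164 and 145 CPM in IR_30d, 14.2, 12.6 and 20.1 CPM in IR_iEV_4d, and 22.03, 15.8 and 29.4 CPM in IR_4d. It was lower with iEVs on day 30 (-2.35 ± 0.31, adjusted p = 0.0115), but the difference between the days did not pass in edgeR (-1.83 ± 0.43, adjusted p = 0.212). It passed in DESeq2 (adjusted p = 0.0116) and with the parotid level as a covariate (adjusted p = 0.0461).

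The last 2 genes, like Siglec1 and Ifi206, belong to no list. Sdc3, a cell-surface heparan sulphate proteoglycan, had 20.9, 20.8 and 16.7 CPM in IR_iEV_30d, 26.2, 30.9 and 31.6 CPM in IR_30d, 20.1, 24.2 and 19.0 CPM in IR_iEV_4d, and 13.0, 13.6 and 11.9 CPM in IR_4d. The order of its groups was that of Ifit3, and it passed on both days, with -0.60 ± 0.12 on day 30 (adjusted p = 0.0245) and 0.72 ± 0.12 on day 4 (adjusted p = 0.044). Its difference was -1.32 ± 0.17 (adjusted p = 0.00149). Ccdc80, a secreted matrix protein, had 6.22, 7.17 and 5.14 CPM in IR_iEV_30d, 8.94, 10.6 and 12.5 CPM in IR_30d, 15.3, 17.5 and 13.4 CPM in IR_iEV_4d, and 9.93, 9.15 and 11.8 CPM in IR_4d. The 2 IR groups overlapped, IR_iEV_30d lay below both and IR_iEV_4d above both (difference -1.37 ± 0.23, adjusted p = 0.0163). Ccdc80 was highest in IR_iEV_4d replicate 2, the library with the highest adipose sum. It lost the call with the sublingual and adipose levels as covariates, and was called in 7 of 12 fits that left out 1 library.

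Because the irradiated baselines differed, the same difference was also read as the change from day 4 to day 30 in each arm. Of the 20 genes, 18 were higher in IR_30d than in IR_4d, and 4.81% of all genes tested were higher in that contrast. With iEVs, 3 of the 20 were lower in IR_iEV_30d than in IR_iEV_4d (3.95% of all genes), none was higher and 17 did not pass. Those 3 were Ccdc80, Slc39a14 and Hsd11b1. The 20 genes were selected by the difference of these same changes, so the counts describe its makeup and support nothing. Ifit3 had a log2 change of -0.10 ± 0.19 with iEVs and 2.49 ± 0.21 without, and Nfkb2 had 0.00 ± 0.10 with iEVs and 1.12 ± 0.10 without. Irf7 had 0.44 ± 0.18 with iEVs (adjusted p = 0.159) and 2.27 ± 0.20 without. The reverse pattern was seen in Ccdc80, with -1.32 ± 0.17 with iEVs and 0.05 ± 0.16 without, and in Slc39a14, with -0.63 ± 0.08 with iEVs and 0.01 ± 0.08 without. Hsd11b1 moved in opposite directions, with -0.52 ± 0.14 with iEVs (adjusted p = 0.039) and 0.99 ± 0.14 without (adjusted p = 0.00067). On single days, 10 of the 20 were lower with iEVs on day 30 (0.63% of all genes) and 5 were higher on day 4 (0.0312% of all genes). Those 5 were Ifit3, Irf7, Rtp4, Bst2 and Sdc3, and they were also all the genes that passed on day 4.

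**Figure D3:**
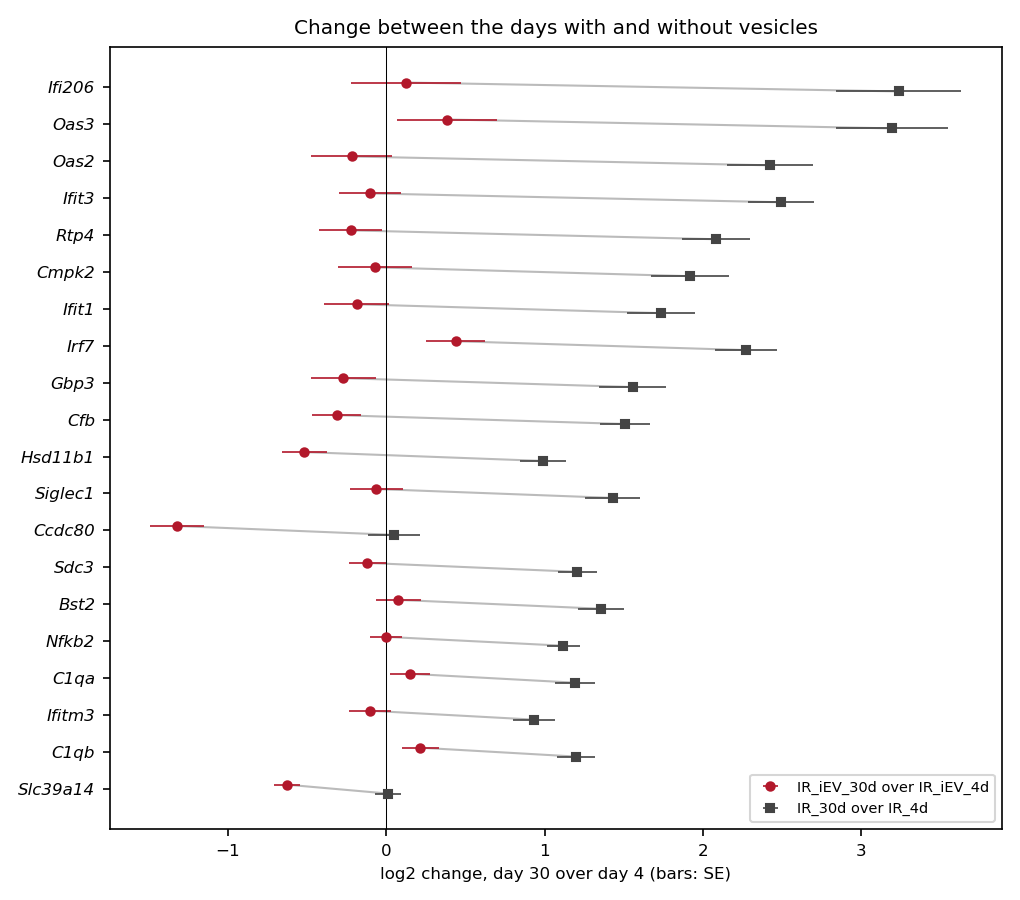
For each of the 20 genes the log2 change from day 4 to day 30 (horizontal axis, bars are SE) is shown with iEVs (red circles, IR_iEV_30d over IR_iEV_4d) and without (grey squares, IR_30d over IR_4d). The squares lie well above 0 in 18 genes and close to it in Ccdc80 and Slc39a14, at 0.05 and 0.01, where the circles lie below 0.

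None of 23 acinar fluid secretion genes passed in edgeR, with a median difference of 0.07, and DESeq2 called Aqp5 alone. At an unadjusted p under 0.05, 3 members were higher and 2 lower (8.7%), against 3.69% higher and 5.36% lower over all genes. Aqp5, the apical water channel of acinar cells, had 259, 267 and 319 CPM in IR_iEV_30d, 192, 210 and 216 CPM in IR_30d, 316, 350 and 295 CPM in IR_iEV_4d, and 337, 358 and 305 CPM in IR_4d. IR_30d was the lowest of the groups and the day-4 groups overlapped. Its iEV change was 0.45 ± 0.10 on day 30 (adjusted p = 0.0411) and -0.06 ± 0.10 on day 4 (adjusted p = 0.93), and the difference of 0.51 ± 0.14 did not pass in edgeR (adjusted p = 0.23) and passed narrowly in DESeq2 (adjusted p = 0.0497). Ano1, the apical chloride channel, had a difference of 0.48 ± 0.16 (adjusted p = 0.369). None of 19 ductal ion transport genes passed in edgeR (median 0.11), and DESeq2 called Fxyd2 alone. At an unadjusted p under 0.05, 3 of the 19 were higher, against 3.69% of all genes, and none was lower. Fxyd2, a subunit of the sodium pump, had 187, 115 and 263 CPM in IR_iEV_30d, 73.1, 73.7 and 83.0 CPM in IR_30d, 203, 209 and 144 CPM in IR_iEV_4d, and 148, 202 and 144 CPM in IR_4d, with a difference of 1.13 ± 0.35 (adjusted p = 0.356 in edgeR, 0.0334 in DESeq2). Without IR_iEV_30d replicate 2, the lowest of its group, edgeR also called it (adjusted p = 0.0427).

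Granular convoluted tubule products were highest in IR_30d, at summed levels of 120890 to 176160 CPM in IR_iEV_30d, 249950 to 275030 CPM in IR_30d, 80352 to 124590 CPM in IR_iEV_4d and 108350 to 132800 CPM in IR_4d. None of 22 tested passed in edgeR or DESeq2, 12 were lower at an unadjusted p under 0.05 (54.5%, against 5.36% of all genes), and the median was -0.68. Klk1b8, a tubule kallikrein of a family of near-identical copies, had 1932, 3818 and 1644 CPM in IR_iEV_30d, 7017, 9201 and 8779 CPM in IR_30d, 1296, 992 and 2189 CPM in IR_iEV_4d, and 1912, 1451 and 2161 CPM in IR_4d. IR_30d stood apart, and IR_iEV_30d replicate 2, which is high in sublingual markers, was the highest of its group. Its difference was -1.45 ± 0.47 (adjusted p = 0.388), and Klk1b21 had -0.75 ± 0.27 (adjusted p = 0.412). Without the 6 libraries high in sublingual markers Klk1b8 was among the genes called.

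In the radiation response, none of 39 p53 targets passed in edgeR or DESeq2 and the median difference was -0.14. Cdkn1a, the cell cycle inhibitor p21, averaged 33.3 CPM in IR_iEV_30d, 33.9 CPM in IR_30d, 77.1 CPM in IR_iEV_4d and 56.1 CPM in IR_4d, against 2.57 CPM in NT. All 4 irradiated groups lay above NT, and the difference was -0.48 ± 0.30 (adjusted p = 0.711). Gdf15, a stress-induced cytokine, had -1.16 ± 0.46 (adjusted p = 0.482, and 0.00412 without IR_iEV_30d replicate 2), with 23.1 CPM in IR_iEV_30d, 41.8 CPM in IR_30d, 41.2 CPM in IR_iEV_4d and 33.4 CPM in IR_4d. Gli1, a Hedgehog target, was near the limit of detection, at 0.458 to 0.681 CPM in the means of the irradiated groups (adjusted p = 0.883), and Aldh3a1, an aldehyde dehydrogenase, was at 0.896 to 1.87 CPM (adjusted p = 0.766).

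None of 37 collagen and matrix genes passed in edgeR, 15 were lower at an unadjusted p under 0.05 (40.5%, against 5.36% of all genes) and the median was -0.32. DESeq2 called 4 of them lower, among them Col5a1, Col6a3 and Col3a1, and edgeR called Col5a1 when IR_iEV_30d replicate 2 was left out. With the 6 sublingual-rich libraries left out, the median was -0.15. Col5a1, a fibril-forming collagen chain, averaged 20.3 CPM in IR_iEV_30d, 31.9 CPM in IR_30d, 34.5 CPM in IR_iEV_4d and 27.3 CPM in IR_4d (difference -0.99 ± 0.21, adjusted p = 0.104). Of 36 cell cycle genes none passed in edgeR or DESeq2, 12 were lower (33.3%, against 5.36% of all genes) and 1 was higher at an unadjusted p under 0.05, and the median was -0.87. Ube2c, a mitotic ubiquitin carrier, was counted at 1.35 CPM in IR_iEV_30d, 2.26 CPM in IR_30d, 3.57 CPM in IR_iEV_4d and 1.38 CPM in IR_4d (difference -2.12 ± 0.60, adjusted p = 0.263). The median of this list was -0.481 with sublingual and adipose covariates and -0.0904 with the 6 sublingual-rich libraries left out, and it turned to 0.0519 when genes with a mean below 5 CPM were left out.

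No gene passed in the higher direction in edgeR, and the 5 nearest were Agfg2, Neat1, Nup210, Etl4 and Shank2. DESeq2 called all 5 of them. In edgeR, Agfg2 passed without IR_iEV_4d replicate 2 and Nup210 without IR_30d replicate 1. Agfg2, an ArfGAP-domain protein with FG repeats, had 40.1, 43.2 and 42.7 CPM in IR_iEV_30d, 35.3, 33.3 and 31.6 CPM in IR_30d, 30.8, 34.5 and 29.5 CPM in IR_iEV_4d, and 42.8, 36.6 and 35.9 CPM in IR_4d. The groups of each day did not overlap, and its difference was 0.62 ± 0.12 (adjusted p = 0.0803). Neat1, the long noncoding RNA that builds paraspeckles, averaged 1706 ± 38.7 CPM in IR_iEV_30d, 1342 ± 180 CPM in IR_30d, 1143 ± 154 CPM in IR_iEV_4d and 1518 ± 102 CPM in IR_4d, with a difference of 0.76 ± 0.16 (adjusted p = 0.104). Nup210, a nuclear pore membrane protein, had 0.66 ± 0.14 (adjusted p = 0.11), Etl4 had 0.58 ± 0.13 (adjusted p = 0.123), and Shank2, a scaffold protein, had 0.47 ± 0.11 (adjusted p = 0.135). All 78 cytosolic ribosomal protein genes had a difference above 0, with a median of 0.17, but none passed in edgeR or DESeq2, and 12 were higher at an unadjusted p under 0.05, against 3.69% of all genes. Of the 40 gene lists, 6 held a called gene and 34 held none.

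**Figure D4:**
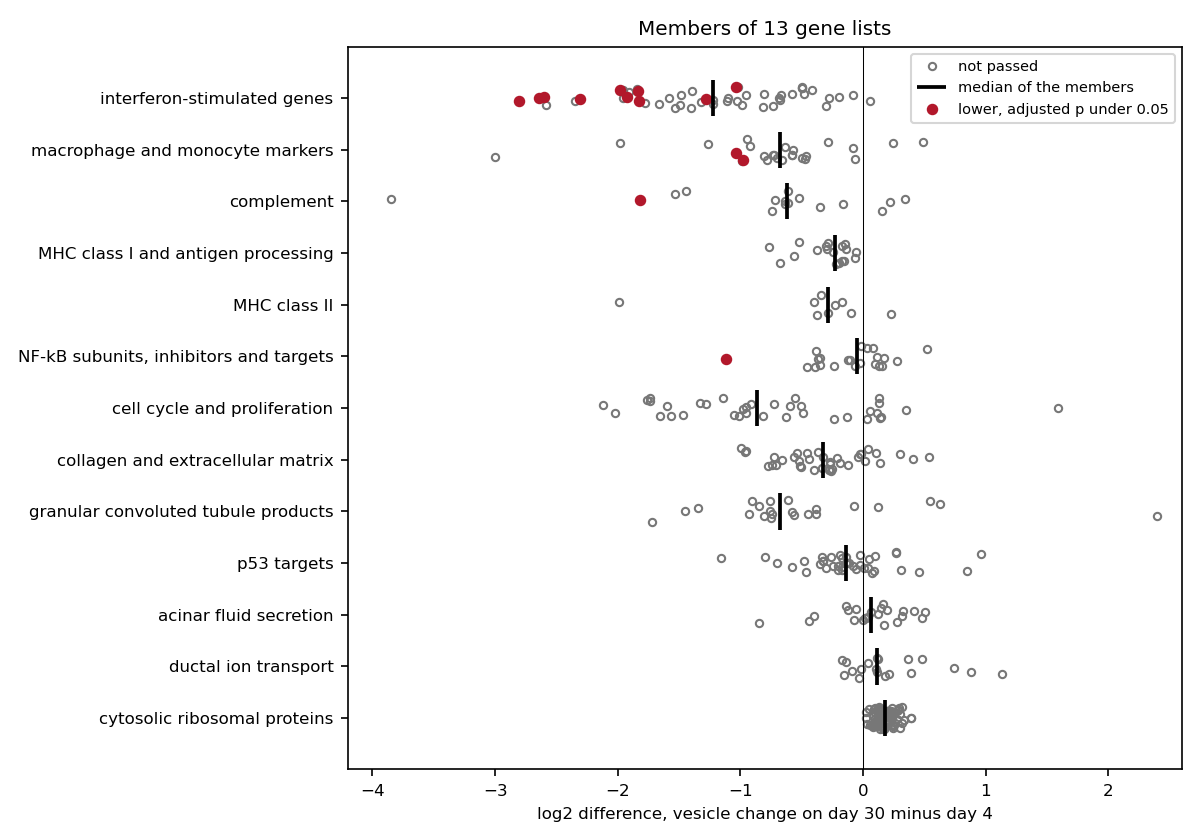
Each point is 1 tested member of 13 gene lists, placed by its log2 difference, the iEV change on day 30 minus that on day 4 (horizontal axis); the vertical bar is the median of the list. Red points are the members past the threshold, 10 of them in the interferon-stimulated list, whose median is -1.22; the marker lists of bordering tissues are not drawn.

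When 1 library was left out at a time, 9 of the 20 genes were called in all 12 fits. They were Ifit3, Rtp4, Oas2, Ifit1, Irf7, Cfb, Nfkb2, Hsd11b1 and Sdc3, and their adjusted p reached at most 0.0412. The other 11 lost the call in at least 1 fit, with a highest adjusted p between 0.0537 and 0.157 by gene. Slc39a14 was called in 2 and Ifitm3 in 3 of the 12.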

How the data were processed

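The authors deposited whole-number read counts per gene symbol, 1 column for each of 15 libraries, with no normalization. TopHat, HTSeq, DESeq2 and the build GRCm39 are named without versions in the submitters' processing notes; the strand setting and the treatment of multiply mapped reads are not given in the sources used here. The comparison, the 40 gene lists and the genes named were chosen with earlier results of these data known.

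Counts of 21013 symbols were filtered with filterByExpr (minimum count 10, minimum total 15), which left 16042 genes. They were scaled by TMM and fitted with edgeR 4.0.16 in R 4.3.3, as 1 model of 15 libraries in 5 groups with 10 residual degrees of freedom. The contrast (IR_iEV_30d - IR_30d) - (IR_iEV_4d - IR_4d) was tested with the robust quasi-likelihood F test. P-values were adjusted by Benjamini-Hochberg over all genes tested, with a threshold of 0.05, and all adjusted p-values are from this test unless another is named. Log2 differences carry a standard error (SE), the absolute difference divided by the square root of F. Levels are CPM on the effective library size, with SD over 3 libraries. CPM values are not divided by gene length, so they are compared between groups and not between genes. A list level per library is the mean log2 CPM with a prior count of 2. The steps were tested on simulated data. Promoter motifs of 9 letters were chosen after the calls were known and after a search with forms 1 letter longer, which matched the same genes. Precision is limited by 3 libraries a group and by the totals per library.

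The naming rule took up to 15 genes past the threshold with the largest difference in each direction and a mean of at least 2 CPM, the 4 members of lowest p in a list, the 5 nearest genes where fewer than 5 passed, and Cdkn1a, Aqp5, Gli1, Aldh3a1, Lcn2 and Nfkb2. The text names all genes past the threshold and a selection of the rest. Alternatives were 2 other scalings, no filter, a mean of at least 5 CPM, DESeq2 1.42.0, limma-voom (limma 3.58.1), the 12 irradiated libraries alone, a replicate block, marker levels as covariates, and leaving out each of 12 libraries. An alternative without the 6 libraries high in sublingual markers was chosen after seeing the data.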

Additional observations from a re-analysis of the deposited data

Results flagged for a closer look

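The effect of iEVs differed between day 30 and day 4 by the test of the difference itself in 20 genes, each given as the log2 change of IR_iEV over IR on day 30 minus that on day 4 (edgeR, adjusted p under 0.05). All 20 were lower, and the adjusted p-values and levels stand with each gene in the text above. Among interferon-stimulated genes the difference was -2.80 for Oas3, -2.64 for Oas2, -2.60 for Ifit3, -2.30 for Rtp4, -1.99 for Cmpk2, -1.92 for Ifit1, -1.83 for Irf7, -1.82 for Gbp3, -1.28 for Bst2 and -1.03 for Ifitm3. The p200 family member Ifi206 had -3.11. Among complement and macrophage genes it was -1.82 for Cfb, -1.49 for Siglec1, -1.04 for C1qa and -0.98 for C1qb. The remaining values were -1.51 for Hsd11b1, -1.37 for Ccdc80, -1.32 for Sdc3, -1.12 for Nfkb2 and -0.64 for Slc39a14.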

How the results depend on the processing

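All 20 genes kept a negative difference under each of the 23 alternatives in which they were tested. They were selected by this difference in the same libraries, so the kept sign adds no support. DESeq2 called 97 genes lower and 22 higher, with 27 interferon-stimulated members lower. With limma-voom 17 genes were called, and Ifi206, Oas3 and Ifitm3 lost the call. The 12 irradiated libraries alone gave 26 lower and 3 higher, and a mean of at least 5 CPM gave 14 lower, with 5 interferon-stimulated members, since 6 of the 20 genes then fell below the filter. That filter also moved the median of the interferon-stimulated list to -0.815, against -1.22, and turned that of the cell cycle list to 0.0519, against -0.866. With sublingual and adipose levels as covariates 10 genes were lower, 6 of them interferon-stimulated. With the parotid level as a covariate 23 were lower, 13 of them interferon-stimulated. Without the 6 libraries high in sublingual markers 5 genes were lower and 2 higher, with 2 interferon-stimulated members, in a fit with fewer samples where some groups hold 1 library that is assumed to vary like the others. A planned cutoff at a mean log2 CPM of 2 could not be run, since it left no library in both day-4 groups. Leaving out 1 library at a time gave 9 to 27 genes lower, 0 to 2 higher and 5 to 12 interferon-stimulated members lower. The replicate numbers showed no pairing: 3 of 18 pairs with equal numbers had a correlation of deviations over 0.1 (range -0.292 to 0.179), and a replicate block gave 20 genes lower, 18 of them shared with the fit without it. Genes below about 2 CPM rest on few counts, which limits what could be called.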

Other observations

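Secretion machinery and lipid synthesis were also measured. None of 40 genes of the unfolded protein response and secretion machinery passed in edgeR or DESeq2, with a median log2 difference of -0.08. Hspa5, the main chaperone of the endoplasmic reticulum, had 518, 555 and 443 CPM in IR_iEV_30d, 707, 967 and 777 CPM in IR_30d, 617, 608 and 687 CPM in IR_iEV_4d, and 722, 792 and 744 CPM in IR_4d. The iEV libraries lay below the IR libraries of both days, so the direction was shared, and the difference between days was -0.45 ± 0.17 (adjusted p = 0.432, edgeR). Edem1, which acts in the disposal of misfolded proteins, had -0.50 ± 0.15 (adjusted p = 0.286, edgeR).

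None of 33 fatty acid and cholesterol synthesis genes passed in edgeR or DESeq2, with a median difference of 0.32. They summed to 1338 to 1644 CPM in IR_iEV_30d, 1301 to 1689 CPM in IR_30d, 2132 to 4395 CPM in IR_iEV_4d and 2391 to 3974 CPM in IR_4d. By these sums both day-4 groups lay above both day-30 groups. By mean log2 CPM, IR_iEV_4d at 4.49 to 4.81 overlapped IR_30d at 4.03 to 4.51. Adipose markers summed to as much as 975 CPM in IR_iEV_4d and 458 CPM in IR_4d, against at most 252 CPM on day 30. The part of adipose tissue in the lipid synthesis genes was not tested. Gsto1, a glutathione transferase, had 61.5, 97.5 and 67.9 CPM in IR_iEV_30d, 117, 150 and 139 CPM in IR_30d, 44.8, 49.3 and 49.0 CPM in IR_iEV_4d, and 47.7, 45.3 and 44.5 CPM in IR_4d. Its groups on day 30 did not overlap, and the difference of -0.90 ± 0.20 did not pass in edgeR (adjusted p = 0.144) but passed in DESeq2 (adjusted p = 0.00887), with a replicate block (adjusted p = 0.0447) and without IR_iEV_30d replicate 2 (adjusted p = 0.00466). Lyve1, a marker of lymphatic vessels and some macrophages, had -1.46 ± 0.39 (adjusted p = 0.217 in edgeR, 0.0359 in DESeq2 and 0.0226 in edgeR without IR_iEV_30d replicate 1).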
